A study of Mus musculus with 3 samples.

Results

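Isl1 ChIP-Seq of cardiac progenitor cells (CPCs) gave 14082 distinct peaks, and the 3953 of them (28.1%) that lay more than 10 kb and up to 100 kb from the transcription start site (TSS) assigned to them are described here. They were chosen by the signed distance in the deposited peak list, after identical repeated lines had been dropped. Of the remaining peaks, 5416 lay within 1 kb of their TSS, 1473 lay over 1 kb and up to 10 kb away, and 3240 lay over 100 kb away.

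The CPCs were differentiated for 5 days from E14 Tg(Nkx2-5-EmGFP) mouse embryonic stem cells, a male line that carries a green fluorescent reporter of Nkx2-5, by directed cardiomyocyte differentiation. Chromatin from 2 experimental replicates was precipitated with an Isl1 antibody from the Developmental Studies Hybridoma Bank, and 1 input library without precipitation was sequenced. All samples shared this line and this differentiation, and no untreated or Isl1-deficient group was part of the series. The deposited list holds the areas common to both replicates, without a value per replicate, so the spread between replicates and the sequencing depth are unknown. The tests below therefore compare peaks with flanking sequence or with each other, and their p-values do not cover variation between replicates. Peaks of a repeated sequence are not independent of each other, so p-values over peaks are too small where such peaks are counted.

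Isl1 belongs to the LIM-homeodomain factors and marks the second heart field, the progenitor population that adds the outflow tract, right ventricle and much of the atria to the heart tube. LIM-homeodomain factors bind short sites built around TAAT, and sites far from a promoter are commonly enhancers, which act on a gene through looping of the chromatin. A large share of the mouse genome between genes consists of repeated sequence, including LINE-1 retrotransposons, whose young copies start with a promoter made of tandem units in front of the reading frames that encode their own mobilisation proteins. A sequencing read from such a copy can match many places equally well, so a peak over a multi-copy sequence marks a kind of sequence more firmly than a position, and the gene assigned to it carries the same uncertainty.

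The distal peaks were mostly peaks on repeated sequence. Each peak was described by its central 200 bp, and each 31-base word in it was counted over both strands of the genome. A peak was called multi-copy when the median word occurred at least 2 times. Of the 3953 distal peaks, 2916 were multi-copy (73.8%, 95% Wilson interval 72.4 to 75.1), compared with 29.7% and 29.5% of equally long windows centred 2 kb away on the 2 sides. The difference was beyond the counting error for both flanks (exact McNemar test, two-sided, p below 1e-300, the smallest value written). With 75-base words the multi-copy share was 42.1%. The median word of a distal peak occurred 61.5 times in the genome (quartiles 1 and 1332).

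Examples of the sequences are given next, because they show what the distal peaks consist of. Coordinates are on mm9 (NCBI m37), the build of the peak list, on the plus strand, and may be off by 1 bp because it is not given if starts are counted from 0 or from 1. The 200 bp at the centre of the Shh peak, 18380 bp upstream of the gene for the secreted morphogen Sonic hedgehog, stand for the largest sequence family. Those of the Klf13, Myl10 and Tmem45b peaks stand for the next 3 families, chosen for the highest copy number in each. A peak at Isl1 itself is shown because it lies at the gene of the precipitated factor. Capitals mark the longest exact run of the unit assigned to the peak, read on either strand, which was AG in Klf13, AGG in Tmem45b and AGAGGG in Isl1, where a longer run of CT stays in lower case. In Shh and Myl10 they mark any match to the 12 strings searched below, of which Myl10 held none. The exact runs in Klf13 and Tmem45b did not join their families, since the joining described below left such runs out.
Shh, chr5:28811922-28812121: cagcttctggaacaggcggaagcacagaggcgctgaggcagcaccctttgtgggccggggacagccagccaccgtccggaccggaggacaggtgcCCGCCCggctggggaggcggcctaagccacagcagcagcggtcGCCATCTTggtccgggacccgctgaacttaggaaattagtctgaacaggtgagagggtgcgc
Klf13, chr7:71073563-71073762: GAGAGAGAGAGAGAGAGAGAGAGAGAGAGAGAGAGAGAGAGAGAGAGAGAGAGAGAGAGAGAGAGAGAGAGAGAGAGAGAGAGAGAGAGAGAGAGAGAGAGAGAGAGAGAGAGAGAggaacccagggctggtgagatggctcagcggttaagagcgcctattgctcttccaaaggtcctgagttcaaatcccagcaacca
Myl10, chr5:137108818-137109017: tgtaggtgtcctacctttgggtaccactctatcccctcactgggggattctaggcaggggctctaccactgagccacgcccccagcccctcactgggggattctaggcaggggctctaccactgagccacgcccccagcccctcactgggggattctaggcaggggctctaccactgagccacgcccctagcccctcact
Tmem45b, chr9:31352820-31353019: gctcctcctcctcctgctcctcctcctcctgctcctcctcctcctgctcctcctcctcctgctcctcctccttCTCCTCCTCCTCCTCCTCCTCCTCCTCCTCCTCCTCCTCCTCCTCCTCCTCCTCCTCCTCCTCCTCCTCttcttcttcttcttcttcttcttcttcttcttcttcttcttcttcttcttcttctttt
Isl1 (64995 bp downstream), chr13:117034802-117035001: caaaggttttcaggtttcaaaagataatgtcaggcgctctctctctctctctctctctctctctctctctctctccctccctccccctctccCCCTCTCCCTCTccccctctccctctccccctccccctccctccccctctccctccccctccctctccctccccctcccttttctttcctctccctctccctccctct

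Sequences of single-copy distal peaks at Nr2f1 and Zfpm1, genes of the cardiac transcription factor list, are shown for comparison. Capitals mark matches to the 12 strings, and Zfpm1 held none. The Nr2f1 window is cut at the end of the coding sequence of Fam172a, in which it lies, and the 27 bases around its match to the LIM-homeodomain string follow on their own line.
Nr2f1, chr13:78302806-78302913: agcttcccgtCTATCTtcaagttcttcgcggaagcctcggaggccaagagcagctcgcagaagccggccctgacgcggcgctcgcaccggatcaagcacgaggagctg
Nr2f1, chr13:78302947-78302973: ctcctggcccCCATTAGattgctttct
Zfpm1, chr8:124754311-124754510: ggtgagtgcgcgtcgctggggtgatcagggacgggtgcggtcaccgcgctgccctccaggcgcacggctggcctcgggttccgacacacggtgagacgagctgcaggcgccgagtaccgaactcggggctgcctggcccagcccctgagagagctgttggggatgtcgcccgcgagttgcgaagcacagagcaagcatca

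The distal peaks fell into 4 classes of sequence. The classes were drawn up after the sequences had been seen, so their counts are descriptions without a test. Peaks were first joined into families when the central 400 bp of 2 peaks shared at least 10 distinct 31-base words. A peak linked to any member joined the whole family, so 2 members need not share words directly. Words with fewer than 8 distinct triplets of bases, such as exact runs of a unit of 1 to 6 bases, were left out. The joining gave 65 families with 1847 peaks and left 2106 peaks unlinked. The largest family held 1499 peaks (37.9% of the distal peaks). A further 1281 peaks (32.4%) were simple repeats, in which at least 60% of the central bases matched the base 1 to 6 positions further on. Another 339 peaks (8.58%) were multi-copy without belonging to either class, and 834 (21.1%) were single-copy and not simple. Of the simple repeats, 196 were single-copy by their words, and so were 7 peaks of the largest family.

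The make-up of the peaks changed with distance from the TSS. The multi-copy share was 2.57% within 1 kb, 38.4% over 1 and up to 10 kb, 73.8% at 10 to 100 kb and 90.2% over 100 kb. Distal peaks were multi-copy more often than those at 1 to 10 kb (odds ratio 4.52, Fisher's exact test, two-sided, p = 6.69e-126) and less often than those over 100 kb (odds ratio 0.305, p = 4.77e-74). Within the distal range, the share rose from 62.9% of 956 peaks at 10 to 20 kb to 72.6% of 1623 at 20 to 50 kb and 82.7% of 1374 at 50 to 100 kb. The largest family held 26.7%, 36.1% and 47.9% of the peaks in these 3 ranges, and simple repeats held 31.1%, 33.3% and 32.2%. Single-copy peaks that were not simple fell from 31.9% to 21.3% and 13.3%. The 95% intervals of these shares did not overlap between ranges for the largest family and for the single-copy peaks.

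**Figure D1:**
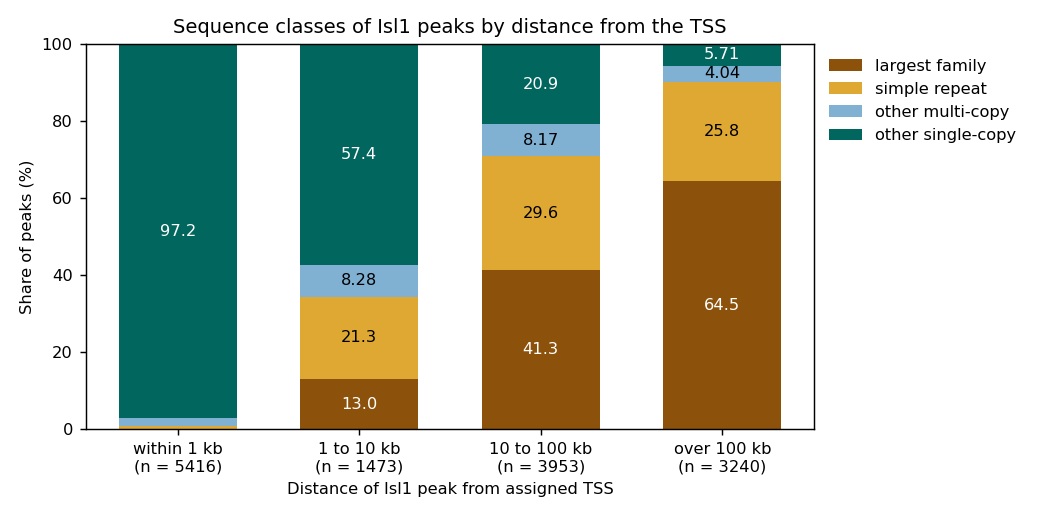
Stacked bars give the share (%) of Isl1 peaks in each sequence class (colours) for 4 ranges of distance from the assigned TSS, with families built over all 14082 peaks. The distal range thus holds 1633 peaks of the largest family and 1171 simple repeats. With families built over the distal peaks alone, as in the classes above, these counts are 1499 and 1281. Peaks of the largest family rise from 0.0923% of the peaks within 1 kb to 13.03%, 41.3% and 64.5% in the further ranges, and single-copy peaks that are not simple repeats (other single-copy) fall from 97.2% to 57.4%, 20.9% and 5.71%.

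The largest family mostly had the structure of a tandem array. In 1200 of its 1499 peaks (80.1%), at least 30 of the 31-base words in the central 2000 bp were repeated at a common spacing of over 50 bp. The spacing was 212 bp in 496 peaks, 208 bp in 261, 214 bp in 133, 204 bp in 75, 201 bp in 62 and 206 bp in 54. In all, 1120 peaks (74.7% of the family) had a spacing of 200 to 220 bp. Such a spacing was found in 2 of the 1281 simple repeats, 2 of the 339 other multi-copy peaks and 2 of the 834 other single-copy peaks.

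**Figure D2:**
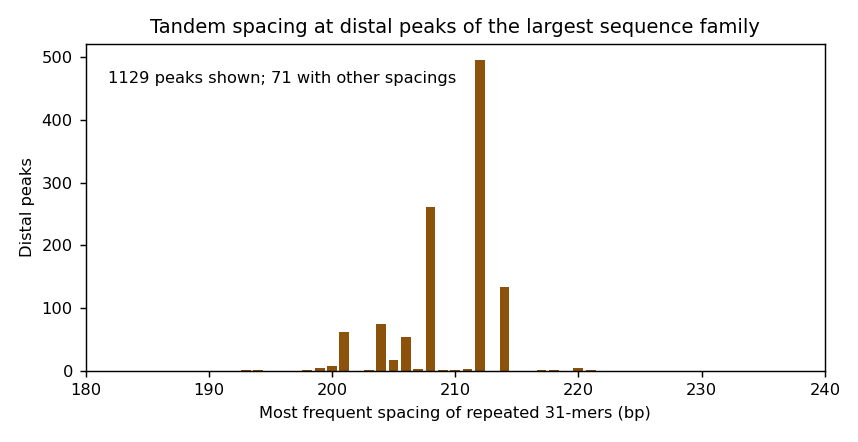
Bars count the distal peaks of the largest family by the most frequent spacing, in bp, of repeated 31-base words in their central 2000 bp. The tallest bars are at 212 bp (496 peaks), 208 bp (261) and 214 bp (133).

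Long reading frames lay beside these arrays. A stretch of at least 1000 codons without a stop was found within 8 kb of 972 peaks of the largest family (64.8%, interval 62.4 to 67.2), of 16 simple repeats (1.25%), of 18 other multi-copy peaks (5.31%) and of 21 other single-copy peaks (2.52%). In the largest family the frame began downstream of the peak centre, read on its own strand, in 952 of the 972 cases (97.9%). It began a median of 1712.5 bp away (quartiles 1588.75 and 1886) and had a median length of 1300 codons, with both quartiles at 1300. The order of a tandem promoter followed by a long frame is that of a full-length mouse LINE-1 element. No annotation of repeats was used here, so the family is called the tandem family in what follows, after the structure of most of its peaks. The name does not describe each member, since in 299 of them no tandem spacing was found.

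The tandem family varied less in GC than the other 3 classes, which follows in part from its definition by shared words. Its centres had 64.2% ± 2.79 GC (SD, n = 1499 peaks) and 6.0 ± 1.1 CpG dinucleotides per 100 bp, compared with 39.5% ± 3.79 GC and 0.629 ± 0.525 CpG in the flanks. In the 299 peaks of the family without a spacing found, GC was 62.6% ± 4.29, and 39.8% of them had a long frame. The peaks of the whole family were broad, with a median width of 1104 bp (quartiles 882.5 and 1372.5). Their median word occurred 1447.5 times in the genome. By position, 982 midpoints were intergenic, 515 intronic and 2 exonic in the GENCODE annotation. The 4 words below, chosen in turn as the word found in most peaks not yet covered, were held in the central 1000 bp of 1344 of the 1499 peaks (89.7%). The first was in 621 peaks, the second in 352, the third in 205 and the fourth in 183. Capitals mark TAAT or its complement ATTA, which was found in the central 200 bp of 46.8% of the family, compared with 88.7% of its flanks.
Word 1: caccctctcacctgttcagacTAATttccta
Word 2: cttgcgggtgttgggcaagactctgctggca
Word 3: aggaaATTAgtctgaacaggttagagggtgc
Word 4: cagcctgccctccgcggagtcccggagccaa

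Arrays of different unit length differed in the strings they held. The string AAGATGGC, the core of the site of the zinc finger factor YY1, was in the central 200 bp of 88.1% of the 496 peaks with a 212-bp unit, 84.0% of the 75 with a 204-bp unit and 90.7% of the 54 with a 206-bp unit. It was in none of the 261 peaks with a 208-bp unit, a count of 0 that allows a share of up to 1.15%, and in 1.61% of the 62 with a 201-bp unit. The 133 peaks with a 214-bp unit lay between these, with 51.1%. The GC box GGGCGG, bound by SP and KLF zinc finger factors, was in 88.9% at 206 bp, 81.3% at 204 bp, 64.7% at 212 bp, 46.6% at 214 bp, 6.45% at 201 bp and 0.383% at 208 bp. Peaks with a 208-bp and a 212-bp unit had median widths of 1283 and 1229.5 bp. Long frames lay beside 73.6% and 82.7% of them. Of 598 peaks with a long frame and the YY1 string on a single strand, 4 (0.669%) had it on the strand of the frame and the others on the opposite strand.

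Simple repeats were the second class. Their share of the centres, 32.5% when the 2 such peaks in the tandem family were included, compared with 0.987% and 0.936% of the flanks and with 1.04% of 511146 windows of 200 bp placed every 5 kb through the genome. The commonest units were AGG in 232 peaks (18.1%), AC in 160 (12.5%), AG in 149 (11.6%) and AAG in 131 (10.2%), each read on either strand. In 902 peaks (70.4%) the unit held A and G alone on a strand, compared with 55.5% of the 5318 simple repeats among the genome windows. AGG made up 3.27% and AC 21.1% of the latter, and units of A and T alone made up 5.02% of them but 0.156% of the distal simple repeats.

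Simple-repeat peaks were narrow and poor in CpG. Their median width was 637 bp (quartiles 522 and 792), and their centres held 56.3% ± 8.28 GC and 1.17 ± 2.82 CpG per 100 bp (SD, n = 1281). Their flanks held 43.3% ± 5.62 GC and 0.909 ± 0.663 CpG. Midpoints were intergenic in 736 peaks, intronic in 536 and exonic in 9. Of the second largest family, with 76 peaks on 19 chromosomes, 55 were simple repeats, as were 28 of the family of 29. Words from exact runs of a short unit did not count in the joining, so other words link these peaks.

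The other multi-copy peaks included small families in a few places. A family of 36 lay with 29 peaks on chromosome 5 and the rest on chromosome 7. Its example, 60099 bp upstream of the myosin light chain gene Myl10, had a median word count of 702. Families of 19 and 16 peaks lay wholly on chromosome 14, and in both the peak with the highest copy number was assigned to the gene model Gm3317. Families of 18 and 9 peaks were spread over 9 and 7 chromosomes. The class had a median width of 953 bp and a median word count of 7.

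Single-copy distal peaks that were not simple repeats were rich in CpG, as are CpG islands, the stretches that mark many promoters. Their centres held 65.4% ± 10.6 GC and 7.53 ± 5.10 CpG per 100 bp (SD, n = 834), compared with 47.6% ± 6.88 GC and 1.30 ± 0.976 CpG in the flanks. Of their midpoints, 265 (31.8%) were in exons, 259 (31.1%) in introns and 310 (37.2%) between genes. Exonic midpoints made up 0.133% of the tandem family and 0.703% of the simple repeats. Within 1 kb of a protein-coding TSS of GENCODE lay 145 of the 834 (17.4%), compared with 13 peaks of the tandem family (0.867%) and 11 simple repeats (0.859%). The distance to the TSS that the list assigns is thus longer than the distance to another annotated start for part of this class. Over all distal peaks, the 2 distances matched within 2 bp for 31.1%, and 87.1% lay more than 10 kb from a GENCODE start too.

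**Figure D3:**
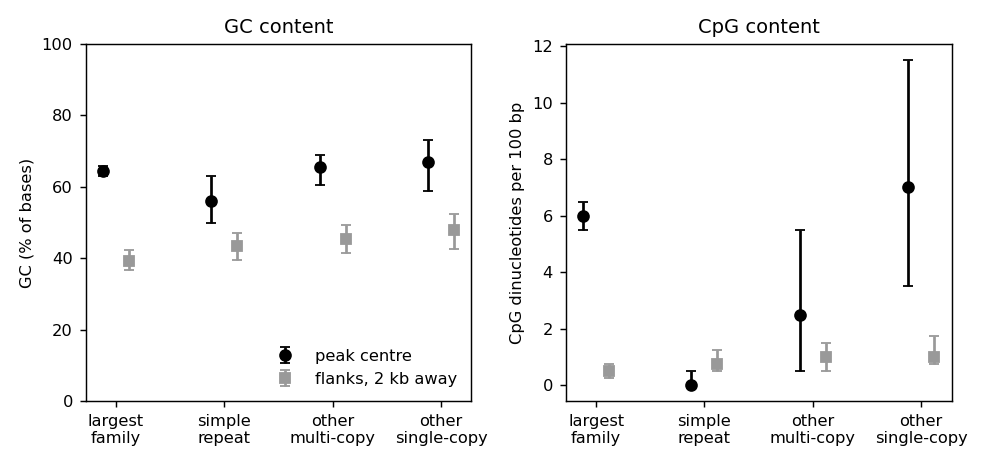
Points give the median, and bars the quartiles over peaks, of GC content (%, left) and CpG dinucleotides per 100 bp (right) in the central 200 bp of distal peaks (black) and in flanks 2 kb away (grey, mean of both sides) for the 4 sequence classes. Median GC of the centres is 64.5%, 56.0%, 65.5% and 67.0% in the order shown, and median CpG is 6.0, 0, 2.5 and 7.0 per 100 bp.

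High GC was frequent among the distal peaks, although the median of the simple repeats, 56.0%, was below the 60% counted here. Of the 3953 centres, 2771 (70.1%, interval 68.7 to 71.5) held at least 60% GC, compared with 1.97% and 1.72% of the flanks (exact McNemar test, p below 1e-300). In the genome windows the share was 1.26%. Mean GC was 61.9% ± 8.33 at the centres and 43.0% ± 7.50 and 43.0% ± 7.45 in the 2 flanks. Counting each sequence family once, the share was 54.0%. The bearing of GC on the recovery of fragments in ChIP libraries was not tested, since coverage of the input is not analysed here.

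The strings searched for were short sites of cardiac and general transcription factors, on both strands of the central 200 bp and of the flanks. They were CTAATNG, with T or G at the N, for LIM-homeodomain factors, TAATTA for homeodomain factors, and for GATA factors the letters GATA after an A or T and before an A or G. The others were CAAGTG for NK2 factors such as Nkx2-5, CATCTG for HAND and TWIST factors, GGAATG for TEAD factors, the MEF2 site, GGGCGG, AAGATGGC, CCGGAAGT for ETS factors, TGACGTCA for CREB and CCAAT for NF-Y. The strings for homeodomain and LIM-homeodomain factors both contain TAAT and can overlap. Each string written backwards without complementing served as its control. Some controls keep part of the site. The reversed homeodomain and LIM-homeodomain strings still hold TAAT or ATTA, and reversed GGGCGG shares GGCGG with the original. A match describes the letters in the window and not a bound site.

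Strings of the cardiac factors were less frequent at the centres than in the flanks. In the 1037 single-copy distal peaks, 7 of 12 strings were lower at the centre, 1 was higher and 4 did not pass the test (exact McNemar tests, larger p of the 2 flanks, Benjamini-Hochberg adjusted over 48 tests). Of the 7, the MEF2 and TEAD strings had the highest p (exact tests, adjusted p = 0.0404 and 0.0111). MEF2 did not pass at 20 to 100 kb, at 10 to 50 kb or with peaks within 1000 bp merged (exact tests, adjusted p = 0.219, 0.0872 and 0.0565), and TEAD did not pass at 20 to 100 kb (adjusted p = 0.183), which left 5, 6 and 6 strings lower. The LIM-homeodomain string was in 15 centres (1.45%), compared with 3.09% of the flanks, and the difference did not pass (exact McNemar test, adjusted p = 0.0773), although it did with flanks 5 kb away (adjusted p = 0.0355). Over the genome windows its share was 3.67%, and over the centres of all 14082 peaks it was 0.412%. GATA strings were in 9.55% of the centres and 27.7% of the flanks (exact test, adjusted p = 2.82e-26), and the NK2 string in 5.79% and 12.2% (adjusted p = 3.99e-05). GGGCGG was in 29.99% of the centres and 4.77% of the flanks (exact test, adjusted p = 1.23e-50).

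The reversed strings gave the same counts in the single-copy peaks, with 7 lower, 1 higher and 4 that did not pass. Reversed GGGCGG was in 32.4% of the centres and 4.73% of the flanks, and the reversed GATA strings in 7.23% and 24.7%. Reversing a string keeps its base composition, and in these peaks it also kept the side of each difference that passed. For the GC box and the strings with TAAT, the control keeps part of the site and cannot separate site from composition.

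In the 2916 multi-copy peaks, 8 strings were lower, 2 were higher and 2 did not pass, and the reversed strings gave the same counts, with reversed TGACGTCA (0.823% of the centres) higher in place of reversed AAGATGGC. The LIM-homeodomain string was in 3 centres (0.103%), compared with 2.66% of the flanks (exact test, adjusted p = 1.56e-17). In tandem-family peaks with a long frame, 1 flank often lay inside that frame. For such peaks the flank is thus not sequence independent of the peak. AAGATGGC differed from its control, with 29.2% of the centres and 1.42% of the flanks (exact test, adjusted p = 4.11e-205) against 0.171% and 0.137% for the reversed string (adjusted p = 1). It was in 56.6% of the tandem family, 0.0781% of the simple repeats, 1.77% of the other multi-copy and 0.839% of the other single-copy peaks. GGGCGG was in 23.8% of the multi-copy centres and 1.61% of the flanks (exact test, adjusted p = 3.38e-150). With each sequence family counted once, neither string was higher in the multi-copy centres.

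**Figure D4:**
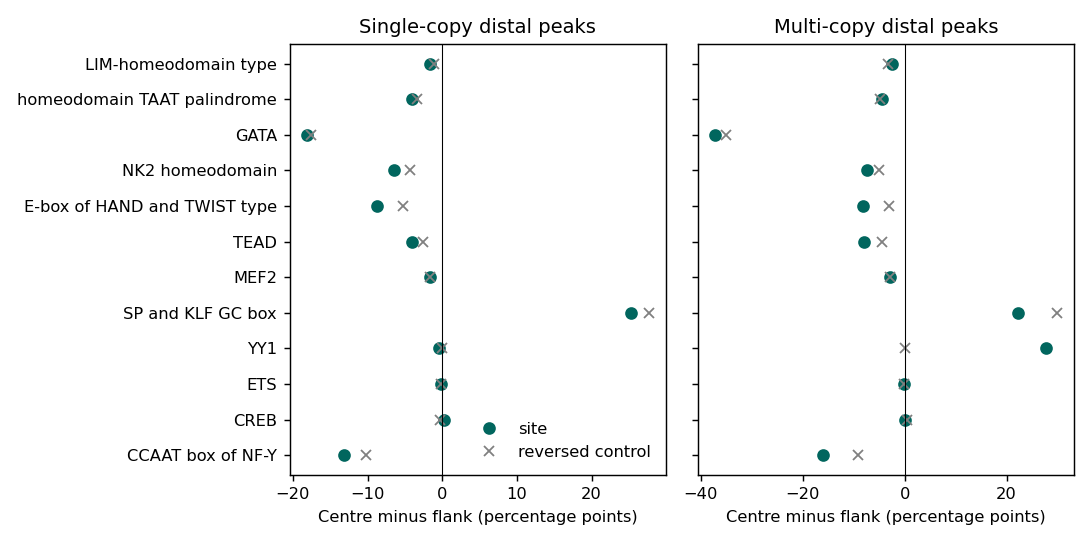
Points give, for each factor type, the share of peak centres that hold its string minus the mean share of both flanks (percentage points) in 1037 single-copy (left) and 2916 multi-copy distal peaks (right). Circles are the strings and crosses the same strings reversed. The widest gap between circle and cross is that of YY1 in the multi-copy peaks, at 27.8 points for the string and 0.0343 for its control. In the same peaks the SP and KLF GC box lies at 22.2 and 29.96 points and the CCAAT box at -16.0 and -9.14.

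Distal peaks were unevenly spread over the chromosomes. On the X chromosome lay 212 of the 3946 peaks on X and autosomes, 0.802 times the autosomal density of sequence 10 to 100 kb from a GENCODE start (95% exact interval 0.695 to 0.922, exact binomial test, p = 0.0015). This ratio joined opposite values. In the 1037 single-copy distal peaks it was 0.0685 (5 peaks on X, exact binomial test, p = 5.29e-24). By class, the tandem family had 170 peaks on X and a ratio of 1.81, the simple repeats 27 and 0.305, the other multi-copy peaks 10 and 0.430, and the other single-copy peaks 5 and 0.0852. E14 cells carry a single X chromosome, and the part of its copy number in these ratios was not tested. Single-copy peaks on X were also few within 1 kb of a TSS, with 19 of 5277 (0.360%).

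**Figure D5:**
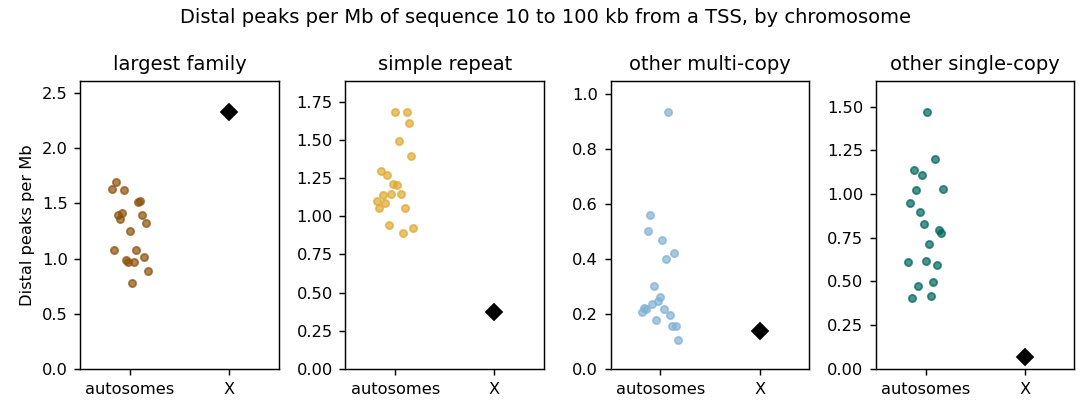
Points give the number of distal peaks per Mb of sequence 10 to 100 kb from a GENCODE start for each autosome (circles) and for X (diamond) in the 4 sequence classes. The tandem family has 2.33 peaks per Mb on X against 0.776 to 1.69 on autosomes, and other single-copy peaks have 0.0685 on X against 0.407 to 1.47 on autosomes.

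Autosomes differed among themselves as well. The tandem family was densest on chromosome 3 (1.69 peaks per Mb) and thinnest on chromosome 11 (0.776). For the other single-copy peaks the order of these 2 was opposite, with 1.47 on chromosome 11 and 0.407 on chromosome 3, the highest and the lowest autosomal values.

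The sides of genes and the introns were compared with the sequence available. Of the distal peaks, 2095 (52.998%) were downstream of their TSS, and 53.2% of the bases 10 to 100 kb from a GENCODE start are (exact binomial test, p = 0.799). The first share uses the TSS of the list, and with distances to the GENCODE TSS it was 51.2%, which passed as lower (exact binomial test, p = 0.0163). Introns held 1461 midpoints (37.0%, interval 35.5 to 38.5), fewer than the 45.0% of these bases that are intronic (exact binomial test, p = 1.61e-24). Single-copy peaks were intronic in 34.0% and multi-copy peaks in 38.0% of cases (odds ratio 0.842, Fisher's exact test, p = 0.0246), a difference that did not pass among peaks at 20 to 100 kb (odds ratio 0.872, p = 0.136). At least 1000 bp wide were 250 of the 1037 single-copy peaks (24.1%) and 1173 of the 2916 multi-copy peaks (40.2%, odds ratio 0.472, Fisher's exact test, p = 3.07e-21). A neighbouring peak of any class lay within 10 kb of 16.3% of the other single-copy peaks (interval 13.96 to 18.97) and 6.94% of the tandem family (interval 5.76 to 8.34).

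The distal peaks were assigned to 3236 gene names, 2586 of them protein-coding. Of all 21896 protein-coding genes in the RefSeq table, 11.8% thus had a distal peak, and 3.53% had a single-copy distal peak. Most gene names (2652) had 1 distal peak, and 584 had more. A promoter peak, within 1 kb of the TSS, was found at 319 of the 774 protein-coding genes with a single-copy distal peak (41.2%, interval 37.8 to 44.7). It was found at 24.7% of the 1812 genes with multi-copy distal peaks alone (interval 22.7 to 26.7) and at 21.6% of the 19310 genes without a distal peak (interval 21.1 to 22.2). Of the distal peaks themselves, 14.2% of the single-copy and 1.68% of the multi-copy ones lay within 1 kb of a GENCODE start. The cause of the difference in promoter peaks was not tested.

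The shares of listed genes with a distal peak are given beside the 11.8% of all protein-coding genes. The counts were 12 of 49 cardiac transcription factors and cofactors (24.5%), 12 of 43 genes of second heart field signalling (27.9%), 11 of 40 genes of neural adhesion and axon guidance (27.5%), 5 of 30 motor neuron genes (16.7%), 3 of 30 chromatin remodelling genes (10.0%), 4 of 40 sarcomere and contraction genes (10.0%) and 0 of 30 housekeeping genes. These lists differ in the sequence around their genes. The bases 10 to 100 kb away and closest to the gene's own starts had a median of 21.8 kb over all protein-coding genes, 114 kb in the cardiac factor list, 119 kb in the signalling list, 344 kb in the neural adhesion list and 4.24 kb in the housekeeping list. The part of this difference in the counts was not tested.

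With single-copy distal peaks alone, the counts were 4 of 49 (8.16%) for the cardiac factors, 4 of 43 (9.30%) for signalling, 3 of 30 (10.0%) each for chromatin remodelling and motor neurons, 1 of 40 (2.50%) for sarcomere genes and 0 of 40 and 0 of 30 for neural adhesion and housekeeping, beside 3.53% of all protein-coding genes. Each peak at the neural adhesion genes, such as Robo1 and Unc5d, receptors of guidance cues, and Nlgn1 and Lsamp, adhesion proteins of synapses and axons, was multi-copy.

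The cardiac transcription factor genes with a single-copy distal peak included Nr2f1 and Zfpm1. Nr2f1, an atrial orphan nuclear receptor, had 3 distal peaks. The one 32805 bp downstream, chr13:78302426-78303384, was single-copy with 65.0% GC and 11.0 CpG per 100 bp, and its midpoint lay in the coding sequence of Fam172a. The others, 57728 bp downstream and 62477 bp upstream, belonged to the tandem family.

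The peak assigned to Zfpm1, a cofactor of GATA factors, lay 51631 bp upstream, chr8:124753787-124755033, in an intron of the gene model Gm20388, with 69.0% GC and 10.5 CpG per 100 bp. Further genes of this list had repeated sequence at their distal peaks. Gata4, a core cardiac factor, had an intergenic peak 35271 bp upstream that was a perfect repeat of period 6 (100% match) with a median word count of 26476. The Isl1 peak shown above, chr13:117034731-117035071, which is 1 of 2 distal peaks assigned to the gene, was a simple repeat with a match of 71.6% and a median word count of 2. The peaks at Nkx2-6, Rarb, Tbx18 and Tead1 belonged to the tandem family, and those at Hey1 and Klf13 were simple repeats.

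Of the signalling genes, those with single-copy distal peaks were Axin2, an inhibitor of Wnt signalling, and the BMP pathway members Smad5, a transducer, and Smad6 and Smad7, inhibitors. Smad6 had 3 such peaks, 14720, 68151 and 94312 bp downstream. The nearest of them lay 9647 bp downstream of a GENCODE start. The middle peak, chr9:63801274-63802157, lay in coding sequence of Smad6, and the others were in an intron and between genes. Smad7 had an intergenic peak 24396 bp upstream, 1301 bp wide, with 78.0% GC and 16.0 CpG per 100 bp. Smad5 had a single-copy peak 49736 bp downstream and a simple repeat 67673 bp downstream. The Axin2 peak lay 23232 bp downstream of the assigned TSS but 39 bp upstream of another start of GENCODE, chr11:108804510-108805280. The Shh peak belonged to the tandem family.

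The chromatin remodelling genes with single-copy distal peaks were Arid1a and Dpf1, BAF complex subunits, and Chd7, a nucleosome remodeller. Chd7 had 1 such peak 43006 bp upstream with 77.0% GC and 17.0 CpG per 100 bp, and another 61608 bp downstream in its coding sequence, 577 bp from a GENCODE start. The Arid1a peak lay 60378 bp upstream, chr4:133369110-133370699, and was 1589 bp wide. Both Dpf1 peaks, 27381 and 53099 bp downstream, lay within Sipa1l3. Of the motor neuron list, Gfra1, a receptor subunit for glial cell line-derived neurotrophic factor, had a peak 26882 bp upstream, and Mnx1, a homeodomain factor, had one 10493 bp downstream with 71.0% GC. That of Neurog2, a proneural factor, 43351 bp downstream, was a simple repeat whose words occurred once. This Neurog2 peak lay 9843 bp downstream of a GENCODE start. In the sarcomere list, Xirp1, an actin-binding protein of the intercalated disc, had an intergenic peak 12377 bp downstream with 71.0% GC.

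The genes with most distal peaks were Gm3264 with 6 and Gm3383, Mgat4c, Rap2a and Tagap with 5 each. The peaks of Gm3264 and Gm3383 lay on chromosome 14, and of these 11 peaks 8 were other multi-copy, 2 belonged to the tandem family and 1, at Gm3264, was single-copy. The single-copy peak lay 44 bp upstream of a GENCODE start. Multi-copy peaks at Gm3264 and Gm3383 lay 83 and 155 bp downstream of such a start. All 5 peaks of Tagap, a regulator of T cell activation, were simple repeats in an intron of D030054H15Rik, between 13142 and 18979 bp upstream. Those of Mgat4c, a glycosyltransferase gene, and Rap2a, a small GTPase, mixed tandem, simple and single-copy sequence.

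The widest distal peaks were assigned to Ttr (15349 bp), Hrnr (13326 bp), Filip1 (4988 bp), Mup18 (4420 bp) and 1700110I07Rik (4408 bp). The Hrnr peak lay over coding sequence of Flg, an epidermal protein gene made of internal repeats, with a median word count of 12. Its midpoint was 502 bp downstream of a GENCODE start. The Filip1, Mup18 and 1700110I07Rik peaks belonged to the tandem family, while the Ttr peak was single-copy by its centre. In the largest family the peak with the highest copy number, 14105.5, was assigned to 1700007P06Rik and had 49.0% GC.

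At the borders of the range, the peaks just inside 10 kb were assigned to Slc14a2 at 10017 bp downstream and Ikzf4 at 10018 bp upstream, and those just outside to Kiz at 9995 bp upstream and Otp at 9970 bp downstream. Just inside 100 kb were 1810046K07Rik at 99982 bp upstream and 1700091H14Rik at 99967 bp downstream, and just outside Nab1 at 100035 bp downstream and Gm3434 at 100043 bp upstream. Of these 8 peaks, the one at Otp was single-copy.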

How the data were processed

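Isl1 ChIP-Seq was performed on 2 replicates of CPCs, with 1 input. The authors aligned reads to mm9 with Bowtie2 at default settings, which report a single alignment for a read with several equal matches, removed duplicates with Picard 1.136, called peaks with MACS without a fragment model, removed ENCODE blacklist regions, kept areas common to both replicates with bedtools 2.15 and annotated the closest TSS. Whether the input entered peak calling, and whether reads were filtered on mapping quality, are not given in the sources used here. The deposited list holds coordinates and signed distances in bp, with other columns naming the gene, and no counts or scores, so depth per sample is unknown.

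The list of 14165 lines was reduced to distinct peaks and joined to the NCBI m37 genome and GENCODE vM1 (Python 3.11.15, numpy 2.4.6, scipy 1.17.1). Midpoints set intron, exon or intergenic position. Gene names were matched to RefSeq (GRCm38, names only), and 92 of 3236 were not in it. Intervals are 95% and cover counting error only. Adjusted p-values are Benjamini-Hochberg, with a threshold of 0.05. Named genes were list genes with a single-copy distal peak, genes with most or widest distal peaks, those nearest the borders of the range, and those of the highest-copy peak in the 4 largest families. Statistics and word counts were tested on simulated data. Members, gene lists and strings were chosen with earlier results of these data known. The Shh example, the sequence classes and the genes named beside list counts were chosen after their values were seen. The sequence of the highest-copy peak of the largest family is not printed. Some results of the named genes and sequences are not reported here.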

Additional observations from a re-analysis of the deposited data

Results flagged for a closer look

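The list repeats 16 lines among the distal peaks, from 15 peaks, and these were dropped before counting. The program used to find areas common to the replicates writes an interval once for each interval it overlaps. The 15 peaks had a median width of 2047 bp, compared with 850 bp for the other distal peaks. Of them, 8 belonged to the tandem family, 1 was a simple repeat, 2 were other multi-copy and 4 other single-copy peaks. The cause of the repeats was not tested.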

How the results depend on the processing

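No replicate could be left out, because a single list holds both. No paired analysis was possible because the list carries no value per replicate. Of 293 values under alternative settings, 273 were counted as unchanged. For tested results this means the same direction and side of the threshold, and for counts without a test a limited change. A value counted as unchanged can still differ in size, as did the multi-copy share, 73.8% as reported and 42.1% with 75-base words. The downstream share, 52.998% as reported, fell to 51.2% with distances to the GENCODE TSS and then passed the exact test (p = 0.0163). It was above the share of available bases, without passing, among peaks at least 500 bp wide (53.2%), at 20 to 100 kb (53.8%), among single-copy peaks (55.4%) and with 1 peak per family (54.2%). The intron odds ratio of single-copy against multi-copy peaks was 0.872 at 20 to 100 kb. With 1 peak per family, 0 strings were higher in multi-copy centres, and the differences from the flanks were -0.305 percentage points for GGGCGG and -0.915 for AAGATGGC. That setting leaves 1 peak of the tandem family by construction. In single-copy peaks, AAGATGGC differed by 0.0976 points in the central 100 bp and CCGGAAGT by 0.0546 points with GENCODE distances. The LIM-homeodomain string passed as lower in single-copy centres among peaks at least 500 bp wide (exact test, adjusted p = 0.0235). With whole peaks in place of the central 400 bp, the largest family held 1829 peaks (46.3%). Requiring 30 shared words gave 35 families, single-copy peaks were assigned to 934 gene names, and a peak within 5 kb of the TSS was found at 32.3% of protein-coding genes with a distal peak. The class of simple repeats, defined after seeing the data, held 1487 and 903 peaks when the match share was set at 0.5 and 0.75. Except where stated, the cause was not tested. Without counts, the depth behind a peak cannot be given.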
